A study of Physcomitrium patens with 8 samples.

Results

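Head-to-head gene pairs are neighbours on opposite strands whose starts face each other across 1 shared gap. In the deposited gene models of the moss Physcomitrium patens (build V3.0, Phytozome v10), genes were sorted by sequence and start, and an adjacent pair was taken where the first gene lay on the minus strand, the second on the plus strand, and the second began 1 to 1000 bases after the first ended. This rule, which uses position alone, gave 918 of 26511 adjacent pairs (3.46%), holding 1836 of 26610 genes (6.90%). The transcript levels of both partners were compared over 8 RNA-seq libraries.

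In such pairs 1 stretch of DNA lies upstream of both genes, and it can act as a bidirectional promoter that serves transcription on both strands. Transcription factor sites, open chromatin and histone marks in that stretch are within reach of both starts, and pairs with shared expression have been described in many eukaryotes. Each partner can also have a core promoter of its own, so shared position does not by itself fix shared expression. Tail-to-tail neighbours, whose ends face each other, have no shared upstream stretch, and tandem neighbours on 1 strand share the gap between the end of one gene and the start of the next.

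The libraries came from chloronemata, the photosynthetic filaments of the moss protonema, of the Gransden strain 6 days after subculture. Wild type (WT) was set beside the knockout line labelled PpanrKO (KO), whose targeted gene the series title describes as a regulator of responses to abscisic acid (ABA), the plant hormone of water stress. Each genotype was sampled untreated, after 1 h on medium with ABA at 1e-05 M, after 1 h on medium with mannitol (an osmotic stress) at 10% w/v, and after drying over saturated salt to a loss of 70% of fresh weight. RNA of 3 biological replicates was pooled for each library, so each of the 8 groups was 1 library. The number of independent KO lines is not stated in the labels. The libraries held 22516957 to 38767634 reads assigned to genes. The IDs are paired with no names in the files, so the KO label was not checked on the targeted gene and no function is given for any gene.

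Among the members, 411 pairs had a gap of 1 to 250 bases, 195 of over 250 to 500 and 312 of over 500 to 1000. The median gap was 304 bases, the quartiles were 118 and 617, and the extremes were 1 and 996. Members lay on all 27 numbered chromosomes (879 pairs) and on scaffolds (39 pairs). At a gap of 1 base no base lay between the annotated genes. Such gaps depend on where the gene models were made to begin, since annotated starts need not be the starts of transcription. Member genes spanned a median of 2347 bases, against 2596 for all genes.

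Of the 918 pairs, 538 (58.6%) had a mean of at least 20 normalised reads in both partners and entered the comparisons. In a further 275 pairs 1 partner passed, and in 105 neither did. The share of pairs that entered was 69.8% at 1 to 250 bases, 52.3% at over 250 to 500 and 47.8% at over 500 to 1000. The 1351 member genes that passed made up 73.6% of members, close to the 74.5% of all genes, and 122 member genes (6.64%) had 0 reads in every library, against 6.54% of all genes. Counting is not stated to use strand, so reads in the short gap or in an unannotated leader could be given to either partner. In 3 of the 538 pairs the partners had equal reads in every library, within 5% or 3 reads.

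Partners of a head-to-head pair had similar profiles over the libraries. The median Pearson correlation r of log2(value + 10) between partners over 8 libraries was 0.57 (95% order-statistic interval of the median 0.52 to 0.62, quartiles 0.21 and 0.79). Of the 538 pairs, 197 (36.6%, exact binomial interval 32.5 to 40.9) had an r of at least 0.7, 86 had an r below 0 and 3 had an r of -0.7 or lower. Tail-to-tail neighbours at the same gaps had a median r of 0.31 (1028 pairs), with 37 pairs (3.60%) at -0.7 or lower. Tandem neighbours at the same gaps had a median r of 0.63 (2015 pairs), above that of head-to-head pairs. Genes 10 places apart on 1 sequence, a level for unlinked positions, had a median r of 0.24 (14967 pairs). Differences between these classes were not tested, because the pairs share the 8 libraries and many genes, and all values are descriptions.

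Median r of head-to-head pairs lay between 0.56 and 0.66 inside the limit of 1000 bases and was lower beyond it. The median r was 0.57 at 1 to 250 bases, 0.66 at over 250 to 500 and 0.56 at over 500 to 1000. The interval of the middle bin (0.52 to 0.74) overlapped both others. The bins were not tested against each other, and overlap does not show that they are alike. Head-to-head neighbours at over 1000 to 5000 bases had a median r of 0.40, and those more than 5000 bases apart 0.33. Tandem neighbours, by contrast, went from 0.73 through 0.62 to 0.53 over the same 3 bins, and tail-to-tail neighbours from 0.37 through 0.21 to 0.31. The last pair inside the limit, Phpat.014G033600 and Phpat.014G033700, had a gap of 996 bases and an r of 0.64. The first outside it, Phpat.015G048500 and Phpat.015G048600, had a gap of 1006 bases and an r of 0.44. Within each genotype the order was the reverse. The outside pair had an r of 0.73 within WT and 0.96 within KO, against 0.53 and 0.86 for the inside pair. Head-to-head pairs up to 1000 bases had quartiles of r of 0.21 and 0.79, so these single pairs show nothing about the limit.

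**Figure D1:**
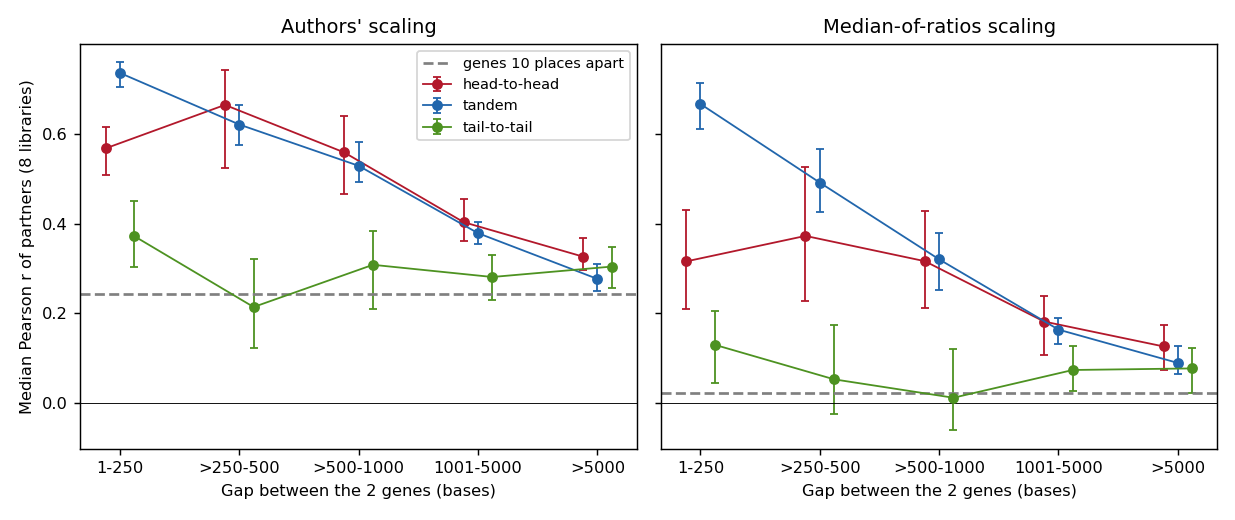
Median Pearson r between neighbouring genes over 8 libraries (y axis, log2(value + 10) of both partners) by gap (x axis, bases) for each orientation, under the authors' scaling (left) and median-of-ratios scaling (right), with 95% order-statistic intervals of the median as bars and genes 10 places apart as a dashed line. With the authors' scaling head-to-head pairs stay between 0.56 and 0.66 up to 1000 bases and lie above tail-to-tail pairs in each of those bins.

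The level of r depended on how the libraries were scaled. Under median-of-ratios scaling, which centres the median gene in each library, genes 10 places apart had a median r of 0.02, head-to-head pairs 0.33, tandem pairs 0.48 and tail-to-tail pairs 0.08. The order of the classes was the same under both scalings, whereas the level of each was lower. Within the 4 WT libraries the median r of head-to-head pairs was 0.66 and within the 4 KO libraries 0.68, against 0.39 and 0.40 for tail-to-tail pairs and 0.71 and 0.66 for tandem pairs, so that within KO head-to-head pairs lay slightly above tandem pairs.

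The place below tandem pairs also depended on which gene models were compared. The difference of the medians, -0.06, was -0.02 with the WT dehydration library left out. Only 17.9% of tandem pairs at 1 to 250 bases had an older V1.6 model for both genes, against 65.5% of head-to-head pairs at those gaps. Among pairs in which both genes had a V1.6 model, the median r was 0.53 for head-to-head (342 pairs), 0.47 for tandem (801 pairs) and 0.31 for tail-to-tail neighbours. Whether tandem models without an older counterpart are pieces of 1 gene was not tested.

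Each member gene also has a neighbour on its other side, which allows a comparison within the gene. Of 799 member genes with a non-overlapping outer neighbour that passed the filter, 486 (60.8%, interval 57.3 to 64.2) had a higher r with the head-to-head partner than with the outer neighbour. The medians were 0.57 with the partner and 0.38 with the outer neighbour. For 561 of these genes the outer neighbour lay over 1000 bases away, whereas every partner lay within 1000 bases. This count thus mixes orientation with gap. With outer neighbours at 1 to 1000 bases, the partner had the higher r in 134 of 238 genes (56.3%, 49.7 to 62.7). Where the outer neighbour lay within 1000 bases tail-to-tail, the partner had the higher r in 84 of 131 genes (64.1%, 55.3 to 72.3). Where it lay within 1000 bases in tandem, the partner had the higher r in 50 of 107 genes (46.7%, 37.0 to 56.6). Partners of 1 pair both enter these counts, so the intervals are too narrow.

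Member genes varied less between libraries than genes at large. The range of log2(value + 10) over the 8 libraries had a median of 1.52 for members and 1.68 for all genes that passed, and 26.9% of members and 37.7% of all genes spanned 2 or more. With ABA in WT, 54 of 1351 member genes (4.00%) were at least 4-fold higher, against 6.5% of all genes, and 20 (1.48%) were at least 4-fold lower, against 3.27%. With mannitol in WT, 34 (2.52%) were higher, against 4.44%, and 19 (1.41%) lower, against 2.43%. With dehydration in WT, 29 (2.15%) were higher, against 4.35%, and 42 (3.11%) lower, against 6.61%.

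In KO the members' shares were smaller for higher genes. With ABA in KO, 2 members (0.15%) were at least 4-fold higher, against 0.863% of all genes, and 13 (0.96%) were lower, against 1.32%. With mannitol in KO, 8 (0.59%) were higher, against 1.47%, and 25 (1.85%) lower, against 2.99%. With dehydration in KO, 2 (0.15%) were higher, against 0.288%, and 18 (1.33%) lower, against 1.81%.

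Between the genotypes the contrast was widest in ABA and after dehydration. In the control state, 5 member genes (0.37%) had at least 4 times the WT level in KO, against 0.903% of all genes, and 6 (0.44%) were lower, against 0.843%. In ABA, 51 (3.77%) were higher in KO, against 6.94%, and 55 (4.07%) lower, against 6.41%. In mannitol, 9 (0.67%) were higher, against 1.78%, and 33 (2.44%) lower, against 4.13%. After dehydration, 37 (2.74%) were higher, against 6.26%, and 41 (3.03%) lower, against 5.6%. The members' share lay below that of all genes in 20 of these 20 counts, which share control libraries and genes. The same held in 20 of 20 for head-to-head neighbours at over 1000 to 5000 bases, and in 2 of 20 for those over 5000 bases apart. At gaps within 1000 bases it held in 19 of 20 for tandem and in 16 of 20 for tail-to-tail neighbours. The low share was thus particular neither to gaps within 1000 bases nor to head-to-head pairs.

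Where 1 partner differed strongly between 2 libraries, the other often differed in the same direction. With ABA in WT, 41 pairs had a partner at least 4-fold apart from control. In 21 (51.2%, exact binomial interval 35.1 to 67.1, for the count of pairs only) the other partner was at least 2-fold apart the same way. In 1 the other partner was so the opposite way. With mannitol in WT the count was 18 of 32 (56.2%, 37.7 to 73.6) with 1 opposite, and with dehydration in WT it was 19 of 36 (52.8%, 35.5 to 69.6) with 0 opposite. In KO the counts were 8 of 8 with ABA, 12 of 20 with mannitol and 6 of 11 with dehydration, with 0 opposite in each. The KO count with ABA was 10 of 16 (62.5%) with a pseudocount of 1 in place of 10. Both partners were 4-fold or more higher in 10 pairs with ABA, 4 with mannitol and 3 with dehydration in WT, and in 0 pairs in each of the KO treatments, where 0, 6 and 0 pairs had any partner so much higher. Both were 4-fold or more lower in 3, 5 and 3 pairs in WT and in 2, 4 and 1 in KO, in the same order of treatments. Other neighbours at the same gaps give the background to these 538 pairs. Among 2015 tandem pairs both were so much higher in 37, 28 and 27 in WT and in 5, 10 and 3 in KO. Both were so much lower in 7, 15 and 25 in WT and in 2, 11 and 4 in KO. Among 1028 tail-to-tail pairs the higher counts were 10, 6 and 6 in WT and 1, 3 and 2 in KO. The lower counts there were 4, 2 and 5 in WT and 1, 3 and 1 in KO.

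**Figure D2:**
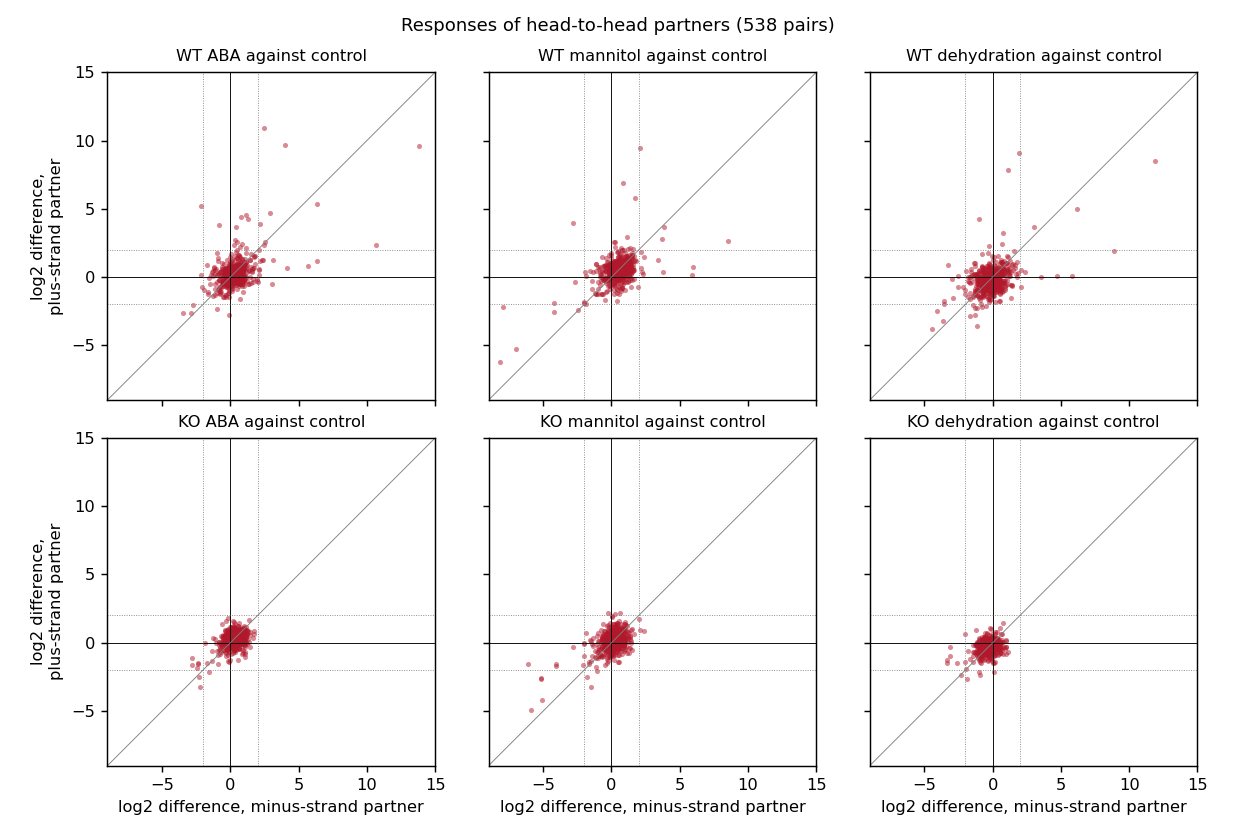
Log2 difference of the plus-strand partner (y axis) against that of the minus-strand partner (x axis), both on the log2(value + 10) scale, for the 538 head-to-head pairs with each treatment against control in WT and in KO. Dotted lines mark 4-fold, points far from 0 lie mostly in the quadrants where both partners differ the same way, and the upper right quadrant is fuller in WT than in KO.

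The same reading was made for KO against WT. In the control state the other partner followed in 3 of 7 pairs, in ABA in 32 of 66 (48.5%) with 2 opposite, in mannitol in 13 of 28 (46.4%) with 1 opposite, and after dehydration in 22 of 44 (50.0%) with 1 opposite. Over the 10 comparisons the share ran from 42.9% to 100% for head-to-head pairs, from 43.6% to 53.2% for tandem pairs, from 14.5% to 27.3% for tail-to-tail pairs and from 5.58% to 19.2% for genes 10 places apart. The head-to-head share was above the tail-to-tail share in 10 of 10 comparisons and above the tandem share in 6 of 10. Comparisons that share a control library are not independent, and the differences between classes were not tested.

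**Figure D3:**
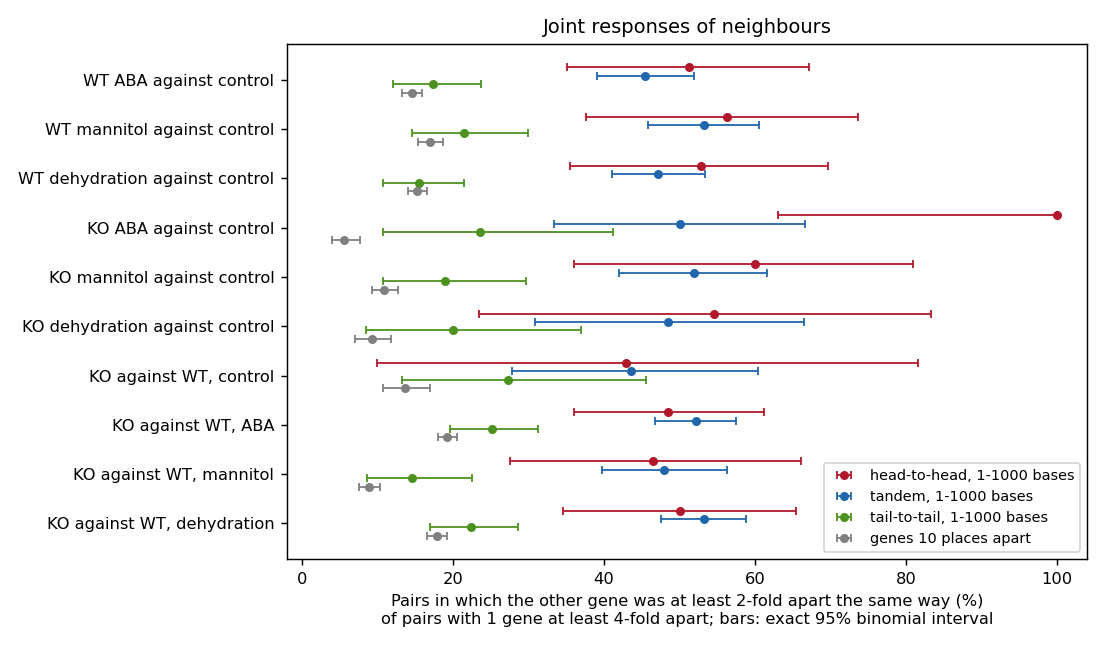
Share of pairs (x axis, percent) in which the other partner was at least 2-fold apart the same way, among pairs with a partner at least 4-fold apart, for each of the 10 comparisons (y axis) and 4 kinds of pair, with exact 95% binomial intervals as bars. Head-to-head and tandem pairs lie to the right of tail-to-tail pairs and of genes 10 places apart, and the head-to-head interval is wide where few pairs qualified, as in KO against WT in the control state (3 of 7).

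Few pairs that were jointly higher in WT were jointly higher in KO, and the same was so for adjacent pairs at large. Of 28 head-to-head pairs with both partners at least 2-fold higher with ABA in WT, 1 was also so in KO (3.57%, against 4.24% of the 707 such adjacent pairs of any orientation), and the median log2 difference of their genes was 1.93 in WT and 0.15 in KO. For mannitol it was 2 of 46 (4.35%, against 7.45%; medians 1.41 and 0.31), and for dehydration 0 of 12 (against 0.88%; medians 1.83 and 0.01). These shares lay near the background of neighbouring genes. Of the pairs jointly lower in WT, 5 of 7 were jointly lower in KO with ABA (medians -1.63 and -2.01), where 15.7% of the 351 adjacent pairs were. With mannitol it was 9 of 13 (medians -1.97 and -1.68), against 58.8%, and with dehydration 5 of 27 (18.5%; medians -1.48 and -0.96), against 21.1%. The pairs were picked on the WT libraries, and neither the difference between genotypes nor that between higher and lower pairs was tested.

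The pair with the largest joint gain over control in WT, with ABA and with dehydration, lay on chromosome 3, with a gap of 940 bases. Phpat.003G020200 (minus strand, 3410948 to 3411900) was listed in WT at 9.64 normalised reads in control, 288793 with ABA, 7222 with mannitol and 73706 after drying. In KO it stood at 33.1, 1.89, 0.704 and 49.6 in the same order of conditions. Its partner Phpat.003G020300 (plus strand, 3412840 to 3413448) had 0, 7577, 53.9 and 3577 in WT, and 0, 0, 0 and 1.87 in KO. Both partners were highest in WT with ABA, then with dehydration, then with mannitol, and no KO library or WT control exceeded 49.6 for the first or 1.87 for the second. Over WT control, with its 0 reads set to a floor of 3, the partner was at least 2618-fold higher with ABA and at least 1236-fold higher with dehydration. Without replicate libraries these differences have no test.

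The joint gain with mannitol in WT was largest in a pair on chromosome 4 with a gap of 115 bases. Phpat.004G044700 (minus strand, 8644979 to 8645648) had 6.75 in control, 1326 with ABA, 225 with mannitol and 1175 after drying in WT. Phpat.004G044800 (plus strand, 8645763 to 8646523) had 7.72, 701, 212 and 556. In KO the first was listed at 2.21, 0, 0.704 and 0, and the second at 3.31, 0, 0 and 0. Both partners were thus ranked ABA, dehydration, mannitol, control in WT and were at or near 0 in KO, and their r over 8 libraries was 0.997. This pair also had the largest joint deficit in KO against WT in mannitol.

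The joint loss against control was largest in WT, in all 3 treatments, in 1 pair on chromosome 24 with a gap of 978 bases, and it was largest there in KO with mannitol and with dehydration too. Phpat.024G048300 (minus strand, 8860362 to 8862581) had 21595 in control, 1989 with ABA, 66.8 with mannitol and 987 after drying in WT, and 6631, 1438, 102 and 1319 in KO. Phpat.024G048400 (plus strand, 8863559 to 8865200) had 23814, 3771, 313 and 1677 in WT, and 14656, 1509, 468 and 2809 in KO. In both genotypes both genes were highest in control and lowest with mannitol. The reads of Phpat.024G048300 equalled those of Phpat.021G025300 on chromosome 21 in every library within 5% or 3 reads, so the value may belong to either copy.

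A pair on chromosome 2 with a gap of 318 bases had a like profile and the largest joint loss with ABA in KO. Phpat.002G125900 (minus strand, 20404063 to 20407166) had 14553, 2132, 107 and 1184 in WT, and 5068, 1048, 139 and 1329 in KO, for control, ABA, mannitol and dehydration. Phpat.002G126000 (plus strand, 20407484 to 20410053) had 17287, 4174, 448 and 1884 in WT, and 10802, 1909, 576 and 2844 in KO. Again both partners were highest in control and lowest with mannitol in each genotype, with an r of 0.99.

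Joint gains in KO were small beside those in WT. The largest with ABA was in Phpat.010G061400 and Phpat.010G061500 on chromosome 10 (gap 111 bases). The first had 150, 165, 251 and 98.4 in WT and 170, 451, 346 and 142 in KO for control, ABA, mannitol and dehydration. The second had 24.1, 6.46, 38.7 and 20.9 in WT and 83.8, 281, 235 and 127 in KO. In KO both genes were highest with ABA, and in WT both were highest with mannitol. For mannitol and for dehydration in KO the pair was Phpat.015G001700 and Phpat.015G001800 on chromosome 15 (gap 206 bases), where the lesser of both log2 gains was 1.73 with mannitol and 0.79 with dehydration.

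The largest joint deficit in KO in the control state was on chromosome 26, in a pair with a gap of 724 bases and the highest r of the pairs ranked by r. Phpat.026G007800 (minus strand, 776337 to 777519) had 4041, 23752, 1009 and 6899 in WT, and 28.7, 72.7, 75.4 and 20.6 in KO. Phpat.026G007900 (plus strand, 778243 to 780349) had 11262, 65450, 3162 and 18804 in WT, and 99.2, 210, 249 and 48.7 in KO. Every KO value of both genes was below every WT value, and in WT both ranked ABA, dehydration, control, mannitol. The reads of Phpat.026G007900 equalled those of Phpat.026G007400, a gene of the same region, so they may be shared between copies.

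**Figure D4:**
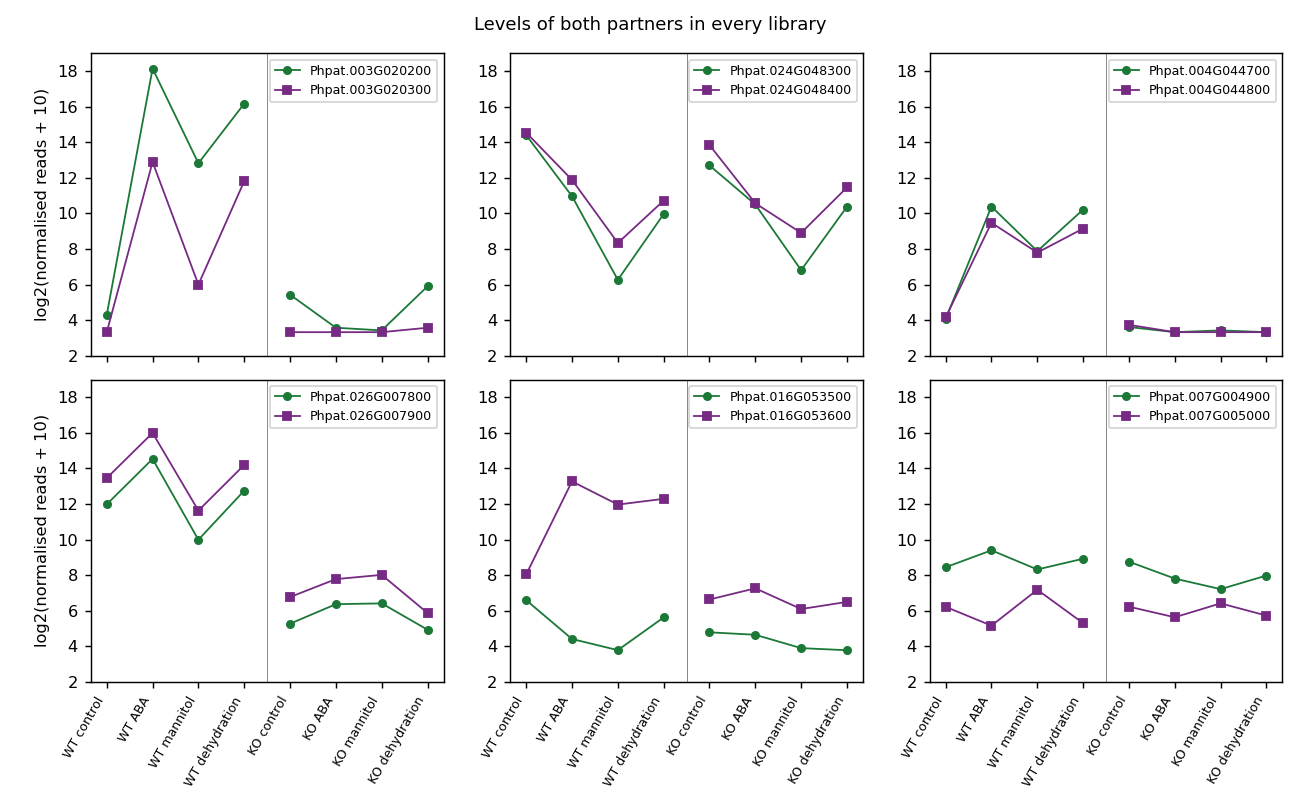
Level of both partners (y axis, log2 of normalised reads + 10) in each of the 8 libraries (x axis) for 6 head-to-head pairs, 1 panel a pair, with 1 point a library and no error because each group is 1 library. In the pairs on chromosomes 3, 4, 24 and 26 the lines of both partners run in parallel, and in the pair Phpat.016G053500 and Phpat.016G053600 they part in WT.

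Not all partners with wide ranges moved together. In 54 pairs both partners spanned at least 2 on the log2(value + 10) scale, and 41 of these (75.9%) had an r of at least 0.7 (median 0.87), while 1 had an r below 0. This share was not computed for tandem or tail-to-tail pairs, so it has no background and does not set head-to-head pairs apart. The lowest was in Phpat.007G004900 and Phpat.007G005000 on chromosome 7, with a gap of 43 bases and an r of -0.43. The first was listed in WT at 339, 666, 310 and 476 for control, ABA, mannitol and dehydration, and in KO at 423, 214, 139 and 242. The second was listed at 64.6, 25.8, 135 and 29.5 in WT, and at 65.1, 39.7, 75.4 and 43.0 in KO. In WT the first was highest with ABA, where the second was lowest.

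The widest parting among these was on chromosome 16, where the gap was 280 bases and r was 0.09. Phpat.016G053600 (plus strand, 8312689 to 8315123) had 254, 9890, 4002 and 5012 in WT, and 89.3, 144, 58.5 and 80.5 in KO. Phpat.016G053500 (minus strand, 8311942 to 8312409) had 86.8, 11.3, 3.80 and 39.4 in WT, and 17.6, 15.1, 4.93 and 3.74 in KO. In WT the first was far higher in every treatment than in control, and the second was lower in every one. Phpat.007G034200 and Phpat.007G034300 (gap 53 bases, r 0.03) parted with ABA in WT, where the second had 1690 against 522 in control and the first 1218 against 1182. Several pairs were tied at the smallest gap of 1 base. The first of them by ID, Phpat.001G041200 and Phpat.001G041300, had an r of 0.88. Others at that gap included Phpat.001G092800 and Phpat.001G092900 (r 0.13) and Phpat.003G085800 and Phpat.003G085900 (r 0.81).

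A test was possible for effects that repeat over the crossed factor, fitted on all 8 libraries with limma as treatment plus genotype. For the genotype effect, 33 member genes rose in KO and 10 fell at a Benjamini-Hochberg adjusted p of 0.05 over 19821 genes, which is 43 of 1351, against 5.41% of all genes. The share of all genes called was 3.74% for higher and 1.67% for lower. Under median-of-ratios scaling the same fit called 16 member genes higher and 15 lower. These calls rest on 4 library pairs. Without the control libraries 103 member genes were called, without the mannitol libraries 2, and without the ABA or the dehydration libraries 0.

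Of the 28 pairs with a called partner for genotype, 3 had both partners higher, 1 both lower and 1 opposite. Both partners were called the same way in 14.3% of the 28 pairs, against 27.7% of 166 tandem and 9.09% of 99 tail-to-tail pairs with a call. The pair with both lower was Phpat.026G007800 and Phpat.026G007900 of chromosome 26, with log2 effects of -6.57 (SE 0.74, limma adjusted p = 0.023) and -6.71 (SE 0.78, limma adjusted p = 0.024), lower in 4 of 4 conditions. The opposite pair was Phpat.022G011100 and Phpat.022G011200 on chromosome 22, with a gap of 581 bases. Fitted over the 4 conditions together, the first fell by 3.32 (SE 0.59, limma adjusted p = 0.040) and the second rose by 1.36 (SE 0.20, limma adjusted p = 0.030). The direction of each was the same in 4 of 4 conditions. In WT the first had 87.8 in control, 1741 with ABA, 1317 with mannitol and 1116 after drying, and in KO 43.0, 85.0, 58.5 and 64.6. The second had 250, 405, 329 and 246 in WT and 772, 775, 974 and 657 in KO. All KO values of the first lay below those of WT and all KO values of the second above them.

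For mannitol, 8 member genes fell and 0 rose, against 0.54% and 0.0151% of all genes. They included both partners of the pairs on chromosomes 2 and 24 described above. By edgeR only the first partner of each of these pairs was called. The second partners, Phpat.002G126000 (edgeR adjusted p = 0.052) and Phpat.024G048400 (edgeR adjusted p = 0.054), were not. Fitted over both genotypes together, Phpat.024G048300 fell by 7.01 (SE 0.56, limma adjusted p = 0.017). Its values went from 21595 in control to 66.8 with mannitol in WT, and from 6631 to 102 in KO. Of the other 4, Phpat.019G046400 fell by 7.04 (SE 0.57, limma adjusted p = 0.017), and Phpat.013G059300 and Phpat.013G060100 had equal reads. For ABA limma called 0 members (111 below an unadjusted p of 0.05) and for dehydration 0 (170), and edgeR on the recovered reads likewise called 0 in each (109 and 169). The share of all genes called was 0.00505% for ABA and 0% for dehydration.

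The difference between partners was tested in the same model over 15573 neighbour pairs of every orientation. Limma called 0 of the 538 head-to-head pairs for genotype, ABA, mannitol or dehydration, against 0.0963% of all neighbour pairs for genotype (0.0578% in one direction and 0.0385% in the other) and 0% for each treatment. Below an unadjusted p of 0.05 lay 114 head-to-head pairs for genotype (21.2%, against 29.4% of all pairs), 12 for ABA (2.23%, against 10.2%), 55 for mannitol (10.2%, against 15.5%) and 46 for dehydration (8.55%, against 13.0%). In the same order, tandem pairs at 1 to 1000 bases were at 26.5%, 6.60%, 13.9% and 7.84%, which for dehydration is below head-to-head pairs. Tail-to-tail pairs at those gaps were at 27.4%, 11.0%, 15.8% and 14.6%. The median size of the genotype effect on the partner difference was 0.41 for head-to-head pairs and 0.54 for all neighbour pairs on the log2 scale. For tandem and tail-to-tail pairs at 1 to 1000 bases it was 0.46 and 0.57. That no pair passed does not show that partners responded alike. The nearest to the threshold for genotype was Phpat.011G028900 with Phpat.011G029000 (gap 338 bases), at a difference of 3.36 (SE 0.28, limma adjusted p = 0.059). Phpat.011G028900 had equal reads with Phpat.011G028600 and Phpat.011G028800, and with pairs of equal reads left out 1 head-to-head pair was called.

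Where members lay on the genome went with the genotype calls. Of the 33 member genes called higher in KO, 20 lay on chromosome 19, a pattern noticed after the values were seen. That chromosome held 613 of the 19821 genes that passed. How many of all called genes lay there was not counted, so the member count is not set apart from the chromosome at large. There 33 member genes passed the filter, and their median log2 difference between KO and WT was 1.24 in control, 1.41 in ABA, 1.01 in mannitol and 1.09 after dehydration. Member genes elsewhere had medians of 0.33, 0.39, 0.02 and 0.22. Of the 33 genes, 31, 32, 33 and 30 were above 0 in the 4 conditions.

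Genes of chromosome 19 at large showed the same shift. The 613 genes there had medians of 1.22, 1.36, 0.93 and 1.14, whereas the medians of the other 26 chromosomes ran from 0.25 to 0.34 in control, from 0.13 to 0.46 in ABA, from -0.11 to 0.05 in mannitol and from 0.14 to 0.33 after dehydration. No other chromosome median overlapped those of chromosome 19 in any condition. DNA copy number was not measured in these data, and its part in the shift was not tested.

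**Figure D5:**
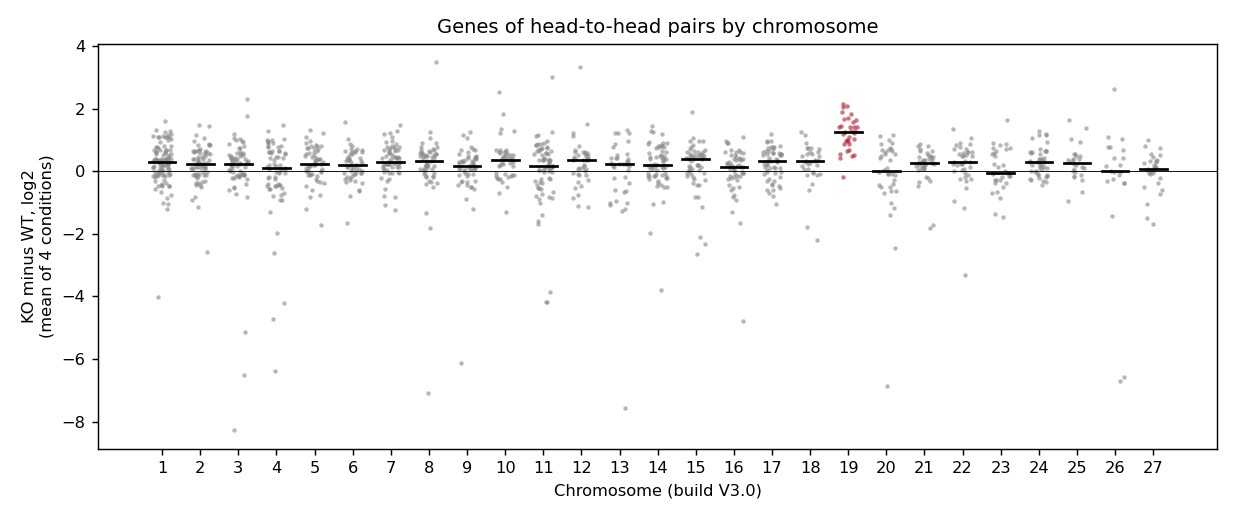
Difference between KO and WT (y axis, log2(value + 10), mean of the 4 conditions) of each member gene that passed the filter, by numbered chromosome (x axis), with the median as a black line. The 33 member genes of chromosome 19, drawn in red, lie mostly above 0, and their median stands above those of the other 26 chromosomes.

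The shift touched the joint calls. All 3 pairs with both partners called higher in KO lay on chromosome 19, among 14 head-to-head pairs there, and 1 partner was called higher in a further 10. Of the 524 pairs elsewhere 0 had both partners called higher and 7 had 1. Tandem and tail-to-tail pairs were not counted by chromosome. An example is Phpat.019G013700 (minus strand, 2363197 to 2369014) with Phpat.019G013800 (plus strand, 2369527 to 2371757), across a gap of 513 bases. The first had 557, 488, 501 and 422 in WT, and 1466, 1440, 1547 and 1457 in KO, for control, ABA, mannitol and dehydration. The second had 313, 331, 267 and 325 in WT, and 605, 891, 652 and 571 in KO. Every KO value of both genes was above every WT value. Their r was 0.93 over the 8 libraries, -0.28 within WT and -0.30 within KO.

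The 14 head-to-head pairs of chromosome 19 had a median r of 0.79, against 0.57 for the 524 elsewhere. Median r of tandem and tail-to-tail pairs was not computed by chromosome, so this value has no background there. With chromosome 19 left out, limma called 9 member genes for genotype, 3 higher and 6 lower. Only 20 of the 43 calls of the full fit lay on chromosome 19. Calls of genes elsewhere were thus also lost when the fit and its adjustment were redone. The largest joint gains in KO over WT in control, ABA and mannitol were all in pairs of chromosome 19. After dehydration the largest was in Phpat.004G119200 and Phpat.004G119300 on chromosome 4 (gap 75 bases). In WT the first had 17.4 in control, 9.69 with ABA, 67.6 with mannitol and 0 after dehydration, and in KO 41.9, 60.5, 95.1 and 58.0. The second had 35.7, 40.4, 146 and 1.23 in WT and 58.4, 121, 189 and 70.2 in KO. Both were highest with mannitol in each genotype and lowest after dehydration in WT.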

How the data were processed

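The labels describe 8 RNA-seq libraries, 1 per genotype and condition, each from pooled RNA of 3 biological replicates, made from polyadenylated RNA with random priming. The deposited signal is 1 normalised value per gene and library. Tools listed in the submitters' processing notes are bedtools, FastQC, SAMtools, TopHat2 and Trimmomatic, without versions, and neither the authors' scaling nor the use of strand is documented in what was at hand. Each library's values were whole multiples of 1 step (100% within 0.01 read), so whole reads were recovered, with no correction for gene length. The intervals given are order-statistic intervals of a median over pairs, or exact binomial intervals on counts of pairs or genes. They treat pairs or genes as independent, which they are not, and hold no error of the reads or between libraries.

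Levels were compared as log2(value + 10), where folds of low genes come out too small. Genes needed a mean of at least 20 over the libraries (19821 kept, 6789 left out). No test was made between 2 single libraries, which are described by counts at 4-fold and 2-fold. Genotype and treatment effects, and the difference between partners (15573 pairs of every orientation), were tested with limma 3.58.1 in R 4.3.3 with a trend in the mean level, two-sided, Benjamini-Hochberg adjusted at 0.05 over all genes or pairs. The residual of that fit, with 3 degrees of freedom, holds the genotype-by-treatment difference, and its p-values reflect only how these libraries of pooled RNA vary. The count test on the recovered reads (edgeR 4.0.16, quasi-likelihood, the authors' scaling) called 554 genes higher and 364 lower in KO, against 741 and 332 by limma. On simulated data for the genotype effect limma recovered 200 of 200 changed genes among 19821 with 8 false calls, edgeR 200 of 200 with 6, and the fit of partner differences 314 of 320 among 15573 pairs with 7. The simulated effects were large and alike in every condition, all genes had 1 dispersion, and edgeR used its own scaling there. High recovery was thus likely from the start. It does not show how the fits do with the genotype-by-treatment difference that the real residual holds. Python 3.11.15 with numpy 2.4.6, pandas 2.3.3 and scipy 1.17.1 did the rest.

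The pairs named are, in each comparison, the one with the largest lesser gain and the one with the largest lesser loss of both partners. To these come the 3 highest and 3 lowest r among pairs spanning at least 2 log2 units in both partners. The smallest gap (the first by ID of those tied) and the gaps on either side of 1000 bases were named too. Pairs of equal reads (within 5% or 3 reads) were counted but not named so. Others named, among them those of the fits and of chromosome 19, were chosen after their values were seen. Members, lists and tests were chosen with earlier results of these data known. The 26610 IDs shared 0 entries with RefSeq's gene table of another assembly, and a search of the gaps for motifs was not run. Alternatives were another pseudocount, other filters, median-of-ratios scaling, other gap and fold limits, libraries left out, edgeR, limma without trend and, added after seeing the data, pairs with V1.6 models only and chromosome 19 left out.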

Additional observations from a re-analysis of the deposited data

Results flagged for a closer look

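In 4 named genes the KO and WT libraries with a treatment lay on opposite sides of their own controls by at least 2-fold each. With 1 library per group the difference between genotypes was not tested. Phpat.003G020200 differed from control with ABA by a log2 of 13.84 in WT and -1.86 in KO, and with mannitol by 8.52 in WT and -2.01 in KO, where the KO levels rest on 1 or 2 reads. Phpat.010G061500 differed with ABA by -1.05 in WT, where it rested on 4 reads, and by 1.64 in KO. On chromosome 26 both partners of 1 head-to-head pair did so with mannitol. Phpat.026G007800 differed by -1.99 in WT and 1.14 in KO, and Phpat.026G007900 by -1.83 in WT and 1.25 in KO.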

How the results depend on the processing

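The median r of 0.57 was 0.47 with no filter and 0.33 under median-of-ratios scaling, and the 36.6% of pairs at 0.7 or more were 29.8% and 23.4%. With 1 library left out they ran from 34.8% to 42.0%, and the median r from 0.55 to 0.61. Median r minus that of tandem pairs, -0.06 as reported, was -0.16 under median-of-ratios scaling, -0.059 to -0.020 with 1 library left out, 0.022 at a mean of at least 100 and 0.067 with V1.6 models in both genes, which turned its direction. Minus that of tail-to-tail pairs, 0.26 as reported, it was 0.18 with no filter. Counting the other partner from 4-fold, which lowers the share by construction, gave 31.7%, 28.1% and 16.7% in WT with ABA, mannitol and dehydration, 25.0%, 20% and 9.09% in KO, and 19.7%, 21.4% and 15.9% for KO against WT in ABA, mannitol and dehydration. With no filter the share was 35.4% in WT with dehydration, 57.1% in KO with ABA and 33.3% for KO against WT after dehydration, and with a pseudocount of 1 it was 62.5% in KO with ABA. For KO against WT in control it was 0% at gaps up to 500 bases (0 of 3 pairs) and 100% with V1.6 models (1 of 1). With V1.6 models it was 25.0% in KO with mannitol and 34.2% for KO against WT in ABA. The 43 genotype calls of member genes became 0 with no filter, 9 without chromosome 19 and 0 to 103 with 1 condition left out. The 8 mannitol calls became 0 with no filter and 5 by edgeR. For the partner difference 1 pair was called for genotype with pairs of equal reads left out, and 0 to 17 with 1 condition left out. Median-of-ratios scaling turned r of Phpat.007G034200 and Phpat.007G034300 to -0.26. Where no construction is named, the cause was not tested. In the other 187 results on correlations, joint shares and counts of calls, the value lay within its spread or the count lay near that reported. Of the results for single named genes and pairs, 353 kept their direction and side of the threshold. In 222 a limma call of a named gene no longer passed. With no filter 0 of 51 such calls passed, and without the ABA libraries 0 of 43.

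Differences under the authors' scaling include a shift of all genes between libraries, up to 0.47 on the log2 scale for mannitol in WT and 0.38 for KO against WT in ABA. No analysis paired by replicate was possible because the labels give no replicate numbers and each group has 1 library. Libraries of both genotypes were matched by condition in the limma fit, and no replicate block could be added. Depth limits pairs with few reads, and 275 pairs had 1 partner and 105 both partners below the filter.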
